A study of Mus musculus with 2 samples.

Results

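The monocytes described here are 215 cells out of 11607 that passed a common cell filter in 2 single-cell RNA libraries of mouse kidney, 207 in the Kif3aΔTub library and 8 in the wild type library. They were chosen by counts of unique molecular identifiers (UMIs), which stand for captured RNA molecules. The filter asked for 500 or more UMIs from 200 or more genes, with mitochondrial genes giving under 50% of the UMIs. A kept cell was a member with at least 3 UMIs of Ccr2, Plac8, Ly6c2 and F13a1 together and at least 3 of the general myeloid genes Lyz2, Tyrobp and Fcer1g. It also needed under 5 UMIs of the complement genes C1qa, C1qb and C1qc, which mark macrophages, under 2% of its UMIs from the neutrophil genes S100a8 and S100a9, and under 2 UMIs of the lymphocyte genes Cd3e, Cd3d and Cd79a. The genes of this rule chose the cells, so their levels are given as a description.

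Both libraries came from kidneys of mice aged 5 weeks. One was labelled wild type (WT) and the other, with genotype KO, Kif3aΔTub, a deletion in the tubule of Kif3a, which encodes a motor subunit of kinesin-2 needed to build primary cilia. The Cre line behind the deletion and the number of mice behind each library were not given in the sources used here. The kidneys were dissociated on ice with a cold-active protease, red cells were lysed, dead cells were removed, and 3′ ends of transcripts were counted with the 10x Chromium v3 chemistry. With 1 library per genotype there was no replicate, so no difference below has a test, and genotype cannot be told apart from library. The wild type library kept 4371 cells and the knockout library 7236, with median depths of 7847 and 7915 UMIs and median mitochondrial shares of 26.8% and 7.55%. The libraries shared 20 barcodes, 17 of them among kept cells and 1 of them belonging to a member.

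Kif3a itself was counted at 10.3 UMIs per 1000000 UMIs (CPM) in wild type cells and 12.1 CPM in knockout cells. The knockout monocyte gate held 18 Kif3a UMIs in 16 of 207 cells, 6.81 CPM with an exact Poisson 95% interval of 4.04 to 10.8, and the wild type gate held none in 8 cells. The deletion was made in tubule cells and a 3′ tag may lie outside the deleted part, so these values check neither the label nor the deletion. All intervals in this text are exact 95% intervals that cover counting error only.

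Monocytes are made in the bone marrow and circulate in blood before they enter tissue. Classical monocytes carry high Ly6C and the chemokine receptor CCR2, through which CCL2 draws them out of the marrow and into inflamed tissue, where they can turn into macrophages or into cells that present antigen. Nonclassical monocytes carry little Ly6C, depend on the nuclear receptor NR4A1 and patrol the vessel wall. Both arise under the myeloid transcription factor PU.1, encoded by Spi1.

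The 4 genes that chose the members are shown here by the 250 bases upstream of their start sites, because PU.1 was counted in most members: Spi1 had 541 UMIs in 130 of the 145 members of the narrower set described below. The sequences are from RefSeq on GRCm38.p6, read 5′ to 3′ on the gene's strand. Capitals mark GAGGAA, the core of a PU.1 site, or its reverse complement TTCCTC, searched for on both strands. Ccr2 lies at chr9:124101933-124102182 on the plus strand, and on the minus strand are Plac8 at chr5:100572206-100572455, Ly6c2 at chr15:75111972-75112221 and F13a1 at chr13:37050245-37050494.
Ccr2: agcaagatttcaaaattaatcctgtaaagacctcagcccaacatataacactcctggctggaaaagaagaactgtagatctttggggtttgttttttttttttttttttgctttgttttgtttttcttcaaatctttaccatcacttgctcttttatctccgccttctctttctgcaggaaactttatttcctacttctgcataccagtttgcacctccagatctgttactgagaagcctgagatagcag
Plac8: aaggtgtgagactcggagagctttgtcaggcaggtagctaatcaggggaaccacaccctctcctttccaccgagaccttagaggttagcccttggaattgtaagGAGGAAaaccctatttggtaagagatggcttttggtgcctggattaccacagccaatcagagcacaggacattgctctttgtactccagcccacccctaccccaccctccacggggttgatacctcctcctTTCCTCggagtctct
Ly6c2: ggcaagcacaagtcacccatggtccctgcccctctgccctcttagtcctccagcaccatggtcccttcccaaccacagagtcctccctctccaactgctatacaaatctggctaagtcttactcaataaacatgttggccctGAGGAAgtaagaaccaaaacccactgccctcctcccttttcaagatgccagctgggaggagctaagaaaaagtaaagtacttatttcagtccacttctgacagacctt
F13a1: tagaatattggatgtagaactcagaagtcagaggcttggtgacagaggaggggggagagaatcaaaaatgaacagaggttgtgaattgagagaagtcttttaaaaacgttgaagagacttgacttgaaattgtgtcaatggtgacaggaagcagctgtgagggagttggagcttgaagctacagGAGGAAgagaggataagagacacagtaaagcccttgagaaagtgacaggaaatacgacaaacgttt
Plac8 held 2 matches, Ly6c2 and F13a1 1 each and Ccr2 none. Of all 27025 genes with such a window, 6986 (25.85%) held a match in at least 1 window. Of the 20 leading monocyte genes named below, 14 were in the RefSeq table and 6 of those 14 held a match. A match is these letters in the window, and says nothing here about binding.

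The data went partly against the monocyte label. Of the 207 knockout members, 51 carried tubule transcripts, counted over 18 segment markers such as Umod, Slc12a1 and Lrp2, at 0.2% or more of their UMIs. These 51 cells had a median of 31866 UMIs and held 68.9% of all UMIs of the members. They had a median of 4 UMIs of the 3 myeloid genes, and the leukocyte gene Ptprc was found in 17 of the 51. Plac8 made up 94.0% of their UMIs of the 4 choosing genes. Plac8 was not restricted to leukocytes in this kidney: among the 6160 knockout cells outside all immune gates, with a median depth of 8623.5 UMIs, 3711 (60.2%) had a Plac8 UMI and 2395 had at least 3, a level of 503 CPM. In the same cells Ccr2 was found in 53 (0.860%), F13a1 in 11 (0.179%) and Ly6c2 in 9 (0.146%). Among wild type cells outside the gates, 1055 of 4330 (24.4%) had a Plac8 UMI, a level of 45.2 CPM.

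A further 8 members had at least 3 UMIs of plasmacytoid dendritic cell genes such as Siglech and Ccr9, 5 had endothelial transcripts at 0.2% or more, 2 of them among those 8, and 1, also tubule-bearing, had at least 3 UMIs of NK cell genes. Leaving out all 62 such cells left 145 members, with 738277 of the 2642001 UMIs of the gate and a median of 5085 UMIs each. This narrower set, which was drawn after the data had been seen, is called the screened monocytes. Their median tubule share was 0.0251% against 1.10% in the 51 tubule-bearing cells, their median myeloid count was 101 UMIs, and Ptprc was found in 133 of 145. Most members were far from the limit on tubule transcripts: 5 lay between 0.2% and 0.5% and 11 between 0.1% and 0.2%. Scrublet, which scores cells by their likeness to simulated doublets, called 11 of the 207 members and 1 of the 145. Of the 51 tubule-bearing cells, 11 had 20 or more myeloid UMIs and 32 had 3 to 5, while 135 of the 145 screened monocytes had 20 or more.

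**Figure D1:**
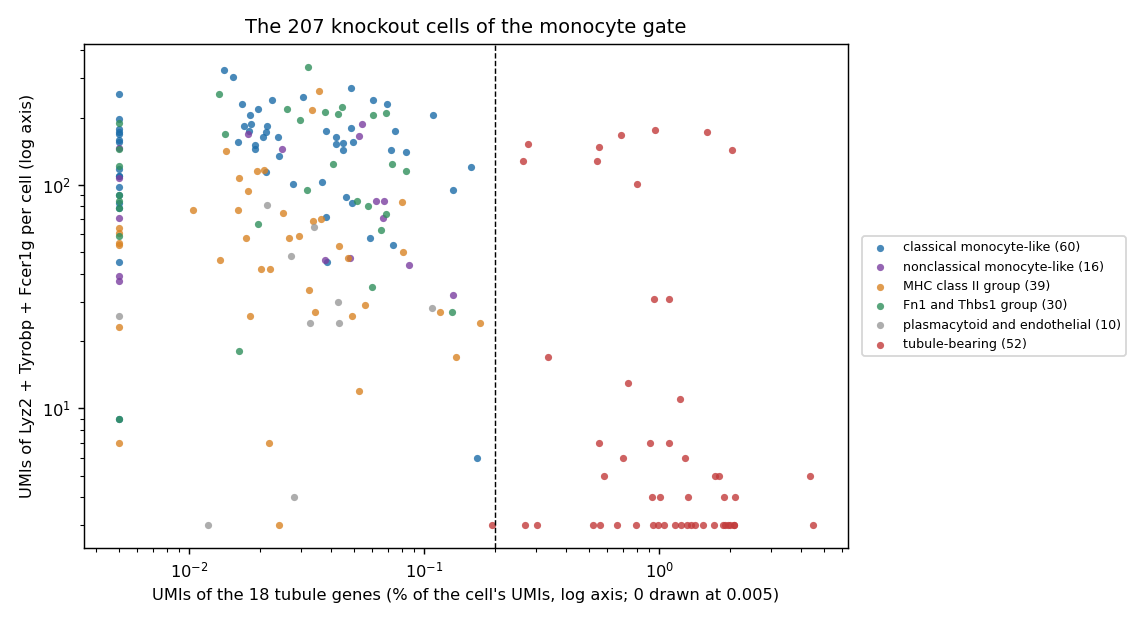
Each point is 1 of the 207 cells of the knockout monocyte gate, coloured by the group it was clustered into. The horizontal axis gives its share of tubule UMIs in percent, with a dashed line at 0.2%, and the vertical axis its UMIs of Lyz2, Tyrobp and Fcer1g, both on log scales. All but 1 of the tubule-bearing cells lie right of the line, and most of them are at 3 to 5 myeloid UMIs. Most other cells lie left of it at 20 or more.

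Of the marker lists of other blood cells, the conventional dendritic cell genes had the highest sum in the screened monocytes, 356 CPM with 11 of 13 genes found, against 187 CPM in macrophages screened in the same way. Neutrophil genes summed to 156 CPM with 6 of 12 found, against 15.8 CPM in those macrophages. B cell genes summed to 89.4 CPM with 4 of 9 found, T cell genes to 6.77 CPM with 1 of 9 found, and basophil and mast cell genes to 1.35 CPM with 1 of 7 found. The neutrophil, T and B cell counts leave out the genes of the rule. The part of these transcripts in the results below was not tested. The screen itself limited plasmacytoid, NK cell, endothelial and tubule transcripts, so their sums describe what it left: 84.0, 51.5, 66.4 and 333 CPM, with tubule genes at 8799 CPM over all 207 members. In the knockout library 13 members had exactly 3 UMIs of the choosing genes and 11 cells with 2 fell just outside. At the complement limit, 6 members had 4 C1q UMIs and 8 cells had 5. At the myeloid limit, 26 members had 3 UMIs and 108 cells had 2, and 23 and 102 of these carried tubule transcripts.

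Monocytes were counted mainly in the knockout library. The gate held 207 of 7236 knockout cells, 2.86% (Clopper-Pearson interval 2.49 to 3.27), and 8 of 4371 wild type cells, 0.183% (0.0790 to 0.360). After the screen, 145 knockout cells (2.00%, 1.69 to 2.35) and 3 wild type cells (0.0686%, 0.0142 to 0.20) were left. As a share of all cells in the immune gates (monocytes, macrophages, neutrophils and lymphocytes), the members made up 19.2% (16.9 to 21.7) of 1076 knockout cells and 19.5% (8.82 to 34.9) of 41 wild type cells. The screened monocytes alone made up 13.5% (11.5 to 15.7) of the same 1076 cells and 7.32% (1.54 to 19.9) of the same 41, with overlapping intervals. The rest of those cells were mostly macrophages in the knockout library (768) and mostly lymphocytes in the wild type library (30, beside 3 macrophages and no neutrophils). In the wild type library the median lymphocyte carried 0.157% tubule UMIs against 0.0376% in the knockout library. The part of this difference in the wild type count after the screen was not tested.

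The 8 wild type members had between 3718 and 11961 UMIs, and only 3 of them passed the screen. At least 2 UMIs of the 13 nonclassical marker genes were found in 6 of the 8, and at least 2 of the classical marker genes in 4. Of those 6 cells, the 2 richest in nonclassical UMIs, with 13 and 14, had failed the screen, 1 with 1.37% endothelial and 1 with 1.77% tubule UMIs. The 3 screened cells had 4, 3 and 4 nonclassical and 4, 0 and 9 classical UMIs. Ace, which encodes angiotensin-converting enzyme and marks nonclassical monocytes, had 10 UMIs in 4 of the 8 cells, of which the screened cells held 1, 3 and 0. Treml4, a receptor of the same subset, had 10 UMIs in 4 cells, of which the screened cells held 1, 0 and 1 and 1 unscreened cell held 7. Ccr2 stood at 1, 3 and 7 UMIs in the screened cells. The 12 Ly6c2 UMIs of the wild type members lay in 2 unscreened cells, 1 of which had 9 plasmacytoid UMIs and no Lyz2. Chil3, a chitinase-like protein of classical monocytes, had 2 UMIs in 1 screened and 2 in 1 unscreened cell. With 3 screened cells of 1 library, these values describe those cells.

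The knockout members fell into 7 clusters when the genes of the rule were left out of the clustering. A cluster took a cell type name only where at least 3 markers of that type were higher than in the rest of the members. At least 3 also had to stand among its 10 leading genes. The first condition alone did not separate myeloid types, since the rest included the tubule-bearing cells. The classical monocyte-like group below also passed 5 nonclassical and 6 macrophage markers, and the Fn1 and Thbs1 group 11 classical and 6 macrophage markers. A classical monocyte-like group held 60 cells, 59 of them screened, which is 40.7% (32.6 to 49.2) of the screened monocytes. A nonclassical monocyte-like group held 16 cells, all screened (11.03%, 6.44 to 17.3). A group of 39 cells (26.9%, 19.9 to 34.9) had major histocompatibility complex (MHC) class II genes among its 10 leading genes and is called the MHC class II group. Another 30 cells (20.7%, 14.4 to 28.2) are called after Fn1 and Thbs1, matrix genes found in most of them. The first genes by fold, Ccl7, Pf4 and Ccl12, were found in only 3, 8 and 4 of its cells. Neither Fn1 nor Thbs1 was among the 10 leading genes of this group, of which C3ar1 was found in 17 cells. These 4 groups held 144 of the 145 screened cells, with median depths over all their cells of 4820, 3652.5, 5955 and 5916.5 UMIs. The other 3 clusters are called after the transcripts that the screen counted and not as cell types. Tubule-bearing is used for 2 clusters of 52 cells with 5 and 9 tubule markers higher than in the rest but none among their 10 leading genes. Plasmacytoid and endothelial is used for 10 cells with 5 plasmacytoid and 6 endothelial markers higher, 3 of the former and none of the latter among the 10 leading genes. The larger tubule-bearing cluster, of 45 cells, was led by Rasl11a, the epithelial genes Sfn and Dsp, and Scnn1g, which encodes the gamma chain of the collecting duct sodium channel. The genes that separate the groups were also used to cluster the cells, so the levels below are descriptions. The naming, unlike the clustering, counted genes of the rule. Ly6c2, Ccr2, Plac8, F13a1 and Lyz2 were among the 12 classical markers higher in the classical monocyte-like group. F13a1 was first among its 10 leading genes, which also held Chil3, Vcan and Hp from outside the rule.

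The classical monocyte-like group carried the usual genes of that type, of which Ccr2 and F13a1 had also helped to choose the members. Ccr2 was found in all 59 of its screened cells, with 1 to 23 UMIs a cell and a median of 9, a level of 1889 CPM. Chil3 stood at 2197 CPM here, 1155 in the Fn1 and Thbs1 group, 738 in the nonclassical monocyte-like group and 87.1 in the MHC class II group. Vcan, which encodes the matrix proteoglycan versican, stood at 422, 273, 87.9 and 0 CPM in the same order. F13a1, the transglutaminase chain of clotting factor XIII, stood at 436 CPM against 133, 35.2 and 0. Hp, the haemoglobin scavenger haptoglobin, was near even in both named groups, at 1683 CPM here and 1354 in the nonclassical monocyte-like cells. It stood at 730 CPM in the Fn1 and Thbs1 group and 41.5 in the MHC class II group.

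The nonclassical monocyte-like group was set apart by receptors and transcription factors of patrolling monocytes. Nr4a1, the nuclear receptor on which this subset depends, stood at 404 CPM in 11 of 16 cells, and at 39.0, 12.4 and 6.35 CPM in the classical, MHC class II and Fn1 and Thbs1 groups. Ace stood at 316 CPM in 9 of the 16 cells and at most at 12.4 CPM elsewhere. Treml4 (422 CPM), the ribonuclease gene Ear2 (598 CPM), the transcription factor gene Pou2f2 (809 CPM) and Itgal (686 CPM), the alpha chain of the integrin LFA-1, also stood highest here. The transcription factor genes Klf2 and Klf4 stood at 2057 and 703 CPM against 726 and 67.3 in the classical group. Ccr2 was found in 5 of the 16 cells, and H2-Ab1, an MHC class II gene, had no UMI. These cells were in the gate mainly through Plac8, which each of them had with 3 to 69 UMIs and a median of 30.

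In the MHC class II group the 8 class II genes of the list, which load and display peptides to CD4 T cells, summed to 48574 CPM. The classical, nonclassical and Fn1 and Thbs1 groups stood at 3480, 879 and 5451 CPM. The share of class II UMIs per cell ranged from 0.272% to 9.37% with a median of 5.19% in this group, against a median of 0.0444% in the classical group. Cd74, the invariant chain, had a UMI in all 39 cells, and H2-Ab1 in 38. Ciita, the master regulator of class II transcription, stood at 149 CPM here and at 17.7, 0 and 12.7 CPM in the other 3. The cells carried Ccr2 in 36 of 39, at 1049 CPM, but little Ly6c2 (2 UMIs in 1 cell) and no F13a1 or Vcan UMI, and Lyz2 was lowest of the 4 groups at 4339 CPM. Cd209a, which encodes a C-type lectin of monocyte-derived dendritic cells, was found in 7 cells of this group and in none of the other 3. Only 1 of the 13 markers of conventional dendritic cells, Cd209a, passed the naming rule, so the group took no cell type name. Several others had too few UMIs to pass. Flt3, Kmo, Ifi205, Xcr1 and Zbtb46 had 16, 17, 19, 3 and 2 UMIs over all screened monocytes, and Ccr7 and Clec9a had none. The 13 markers summed to 763 CPM here, against 120, 105 and 241 CPM in the classical, nonclassical and Fn1 and Thbs1 groups. Screened macrophages stood at 187 CPM. Whether the cells of this group are dendritic cells was not tested. The group's chemokine gene Ccl17, which draws CCR4-bearing T cells, rested on few cells: 149 UMIs in 8 screened monocytes, 94.0% of them in 4.

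In the Fn1 and Thbs1 group the list of matrix genes and proteases summed to 19731 CPM against 13376 CPM in the classical group, and the chemokine list to 6905 against 1690 CPM. The median share of chemokine UMIs per cell was 0.350% against 0.116%. The classical markers outside the rule stood at 7006 against 6952 CPM and the dissociation-induced genes at 5623 against 6229 CPM. Fn1, which encodes fibronectin, stood at 2684 CPM in 28 of 30 cells, against 496, 87.9 and 510 CPM in the classical, nonclassical and MHC class II groups. Thbs1, the matrix protein thrombospondin 1, stood at 1295 CPM in 18 cells and at most at 53.2 CPM elsewhere. Of its 220 UMIs over all screened monocytes, 58 lay in 1 cell and 64.1% in 4. Arg1, the arginase that degrades arginine, stood at 1675 CPM in 13 cells, at 228 CPM in the MHC class II group and at 0 UMIs in both named groups. Ccl2, the ligand of CCR2, stood at 1320 CPM in 13 cells and at most at 110 CPM elsewhere. The haem-degrading enzyme gene Hmox1 stood at 850 CPM here, but 90 of its 167 UMIs over all screened monocytes lay in 1 cell. Platelet factor 4 (Pf4) stood at 933 CPM, with 103 of 149 UMIs in 1 cell. The glycolysis list summed to 8066 CPM against 3852 in the classical group, and Hif1a, the oxygen-sensing transcription factor, stood at 444 CPM against 95.7. The macrophage markers outside the rule summed to 12198 CPM against 7792 CPM in the classical group and 29813 CPM in the screened macrophages. No classical or macrophage marker was among the 10 leading genes of this group, so it was left without a cell type name too.

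**Figure D2:**
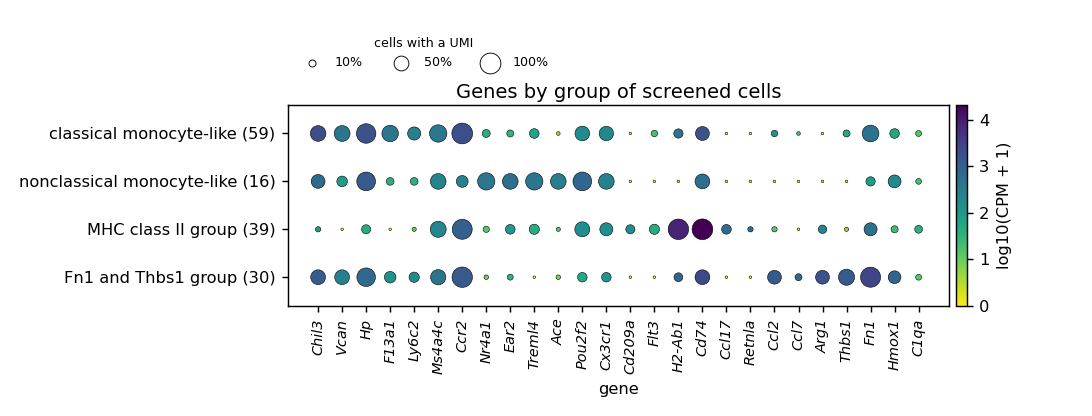
Rows are the 4 groups of screened monocytes, with their cell numbers, and columns are genes. The size of a dot is the percent of cells with a UMI and its colour the level as log10 of CPM + 1. The dots of Nr4a1 and Ace are largest in the nonclassical monocyte-like row, those of H2-Ab1 and Cd74 in the MHC class II row, and those of Thbs1 and Arg1 in the Fn1 and Thbs1 row.

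Most screened monocytes had no Ly6c2 UMI. The gene had 111 UMIs in 33 of 145 cells (0 to 18 UMIs a cell), with 112 cells at 0, 20 at 1 or 2 and 13 at 3 or more. Of those 13 cells, 11 were in the classical monocyte-like group and 2 in the Fn1 and Thbs1 group, and 36 of the 59 classical monocyte-like cells were at 0. Another 69 Ly6c2 UMIs of the gate lay in the plasmacytoid and endothelial members that the screen left out. Ccr2, by contrast, had a UMI in 129 of 145 cells with a median of 7, Plac8 in 123 with a median of 12, and F13a1 in 48. A cell at 0 Ly6c2 at these depths may still express the gene.

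**Figure D3:**
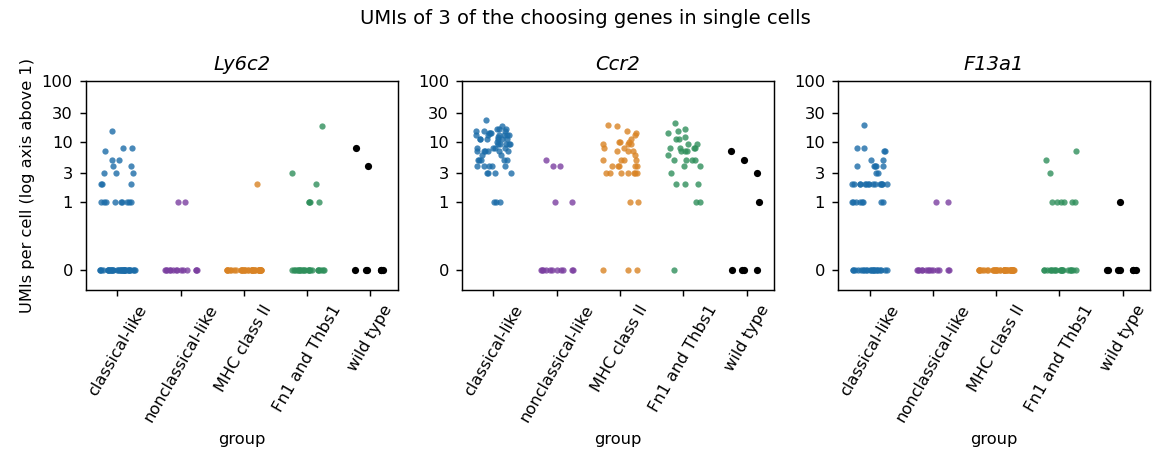
Each point is 1 cell and gives its UMIs of Ly6c2, Ccr2 or F13a1, by group for the screened knockout monocytes and for the wild type members. The vertical axis is logarithmic above 1. Ccr2 was found in 59 of 59 classical monocyte-like cells and in 5 of 16 nonclassical monocyte-like cells, while Ly6c2 was at 0 in most cells of each group.

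Irf7 was among the genes higher in cells with Ly6c2, and the class II gene H2-Eb1 among those lower. Between the 13 screened cells with at least 3 UMIs and the 112 at 0, 41 of 1824 genes (2.25%) were at least 2-fold higher and 126 (6.91%) at least 2-fold lower in the former, with an interval that left out no change. In all 207 members the counts were 243 (9.48%) and 681 (26.6%) of 2562 genes, where the 52 cells of the tubule-bearing clusters had 3 Ly6c2 UMIs in all. Irf7, the master regulator of the type I interferon response, stood at 407 CPM in the screened cells with Ly6c2 and 52.3 CPM in those without. The log2 ratio was 2.96, from 29 UMIs on each side. The 72 Irf7 UMIs of all screened monocytes lay in 28 cells, 15 of them in 1 cell and 47.2% in 4. Mmp8, a neutrophil collagenase (log2 ratio 3.53), Fos (2.35), the acute phase gene Saa3 (1.77), Hp (1.85) and the membrane protein gene Ms4a4c (1.74) were also higher. H2-Eb1, with 4 UMIs in the cells with Ly6c2 and 2191 in those without, was lower by 5.97 on the log2 scale (log2 ratio -5.97). Arg1 had 282 UMIs in cells at 0 and none in the 13, at least 12.1-fold lower against a floor of 3 counts in the summed cells. Ccl17 and Pf4, both of which rest on few cells, also had no UMI in the 13. None of the 39 cells of the MHC class II group had 3 or more Ly6c2 UMIs.

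The members nearest the macrophage gate were the 26 screened cells with 1 to 4 C1q UMIs, against 119 at 0. The classical, nonclassical, MHC class II and Fn1 and Thbs1 groups gave 5, 3, 9 and 8 of the 26 cells. They gave 54, 13, 30 and 22 of the 119, and the part of this make-up in the differences was not tested. The comparison is of the cells with C1q against those at 0. Of 2157 genes, 17 (0.788%) were higher and 89 (4.13%) lower in the cells with C1q, and in all 207 members 100 (2.82%) and 240 (6.76%) of 3549. Trem2, the lipid-sensing receptor of tissue macrophages, was higher by 1.13 on the log2 scale, the lysosomal protease gene Ctsd by 1.20, Lpl, the lipoprotein lipase, by 1.66 and the macrophage elastase gene Mmp12 by 2.24. Hmox1 was higher by 2.59, a gene with 53.9% of its UMIs in a single cell. On the other side, Ifitm1, an interferon-induced membrane protein, had 7 UMIs in the cells with C1q and 415 in those without, a log2 ratio of -3.71. Cd209a had 43 UMIs in cells at 0, 23 of them in 1 cell and 90.7% in 4, and none in cells with C1q, at least 3.38-fold lower. Ccl7 and Cxcl2 were likewise absent from cells with C1q, but 104 of 112 Ccl7 UMIs and 44 of 47 Cxcl2 UMIs of the screened monocytes lay in 1 cell each.

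Against the 768 C1q macrophages of the same library, the 207 members differed by 2-fold or more in 389 of 3413 genes with at least 50 UMIs and 50 CPM in the higher gate (11.4%), 186 higher (5.45%) and 203 lower (5.95%). Scaling moved that split: of the called genes 47.8% were higher with total UMIs, 17.0% with trimmed-mean (TMM) factors and 25.5% with median-of-ratios factors, which shifted all log2 ratios by -0.22 and -0.13. With every cell thinned to 2000 UMIs, 96 were higher and 272 lower. Between the 145 screened monocytes and 658 macrophages screened in the same way, 397 of 2651 genes (15%) differed, 186 higher (7.02%) and 211 lower (7.96%), and the median log2 ratio over all genes with at least 20 UMIs was -0.0047. Thinned to 2000 UMIs a cell, the screened sets gave 87 higher and 293 lower. In the lists that follow, genes with at least 20 UMIs over both gates were measured and enter the median. A gene was counted as higher or lower only if it also reached 50 UMIs and 50 CPM in the higher gate. By that measure, 186 of all 9242 genes were higher and 211 lower for screened cells. For all 207 members 186 of 11774 were higher and 203 lower. These are the counts to set beside those of the lists. All values from here on are of screened cells, unless all 207 members are named.

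Classical monocyte genes were higher and macrophage genes lower. Of the classical markers, 9 of the 10 that the rule did not use were at least 2-fold higher in monocytes. Cd14, a receptor for bacterial lipopolysaccharide, was the exception with 230 against 370 CPM. In all 207 members 7 of those 10 were higher. Over all 15 classical markers, those of the rule among them, the median log2 ratio in screened cells was 3.65. Chil3 stood at 1172 CPM in 57 of 145 monocytes against 21.7 CPM in macrophages, a log2 ratio of 5.75 (5.42 to 6.11). Hp stood at 917 against 18.6 CPM (5.61, 5.26 to 6.01) and Vcan at 226 against 1.97 CPM (6.75, 5.77 to 8.18). Lyz2, the lysozyme that helped choose both gates, stood at 14327 against 7070 CPM, but at 4423 against 4750 CPM over the full gates. Of 12 nonclassical genes with at least 20 UMIs, 3 were higher (Treml4, Ear2 and Itgal) and 1 lower, the fractalkine receptor gene Cx3cr1 at 171 against 600 CPM. In all 207 members none of the 12 was higher and 3 were lower.

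Of the macrophage markers that the rule did not use, 13 of 16 were lower in the screened monocytes and none was higher, with a median log2 ratio of -2.16, and in all 207 members 13 of 16 were lower as well. Apoe stood at 5277 against 22652 CPM, the mannose receptor gene Mrc1 at 52.8 against 584 CPM, the lysosomal membrane gene Cd63 at 48.8 against 689 CPM and Ms4a7 at 24.4 against 624 CPM (-4.64, -5.43 to -4.01). Adgre1, which encodes the macrophage antigen F4/80, stood at 71.8 against 327 CPM. Among the 10 lowest genes against macrophages were Vcam1, Ch25h, Slco2b1, Gas6, Igf1 and Ccl8. Vcam1, an adhesion molecule, had no UMI in monocytes and stood at 157 CPM in macrophages, at least 38.7-fold lower. Ch25h, which makes an oxysterol, and the transporter gene Slco2b1 also had none, at least 15.5- and 13.5-fold lower. Single UMIs were found of Gas6, a ligand of clearance receptors (174 CPM in macrophages), of Igf1 (71.9 CPM) and of the chemokine gene Ccl8 (184 CPM, log2 ratio -6.50 with an interval of -12.39 to -4.60).

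**Figure D4:**
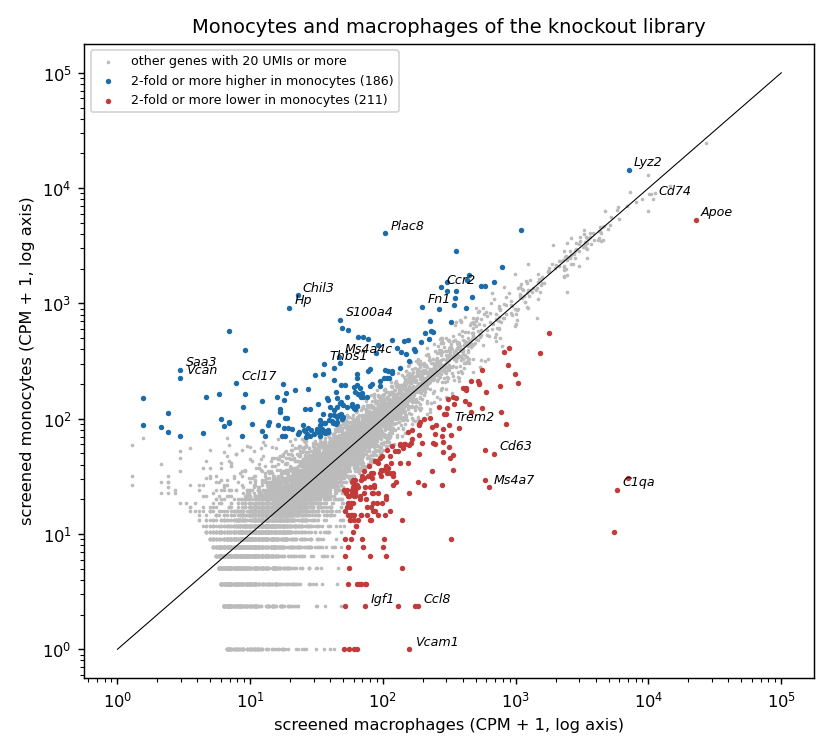
Each point is a gene, with its level in screened macrophages on the horizontal axis and in screened monocytes on the vertical axis, both in CPM on log scales. Named points are genes of the text. Saa3, Vcan, Chil3 and Hp lie above the diagonal, while Apoe, Cd63 and Ms4a7 lie below it.

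Of 2042 genes with enough UMIs and CPM in the screened monocytes, 85 were 2-fold higher there than in macrophages, neutrophils and lymphocytes alike. These genes entered by their level in monocytes alone, the gate in which they are called higher. With the filter on the higher gate, fewer genes were compared, 1405 with neutrophils and 1454 with lymphocytes. Ranked by the smallest of the 3 ratios, the leading genes were Saa3, Vcan, Ccl17, Ms4a8a, Rnd3, Ms4a4c, Ccl24, Thbs1, Fn1 and Arg1. Saa3, an inducible serum amyloid protein, stood at 265.5 CPM in 25 of 145 monocytes, against 1.97 CPM in macrophages and no UMI in neutrophils or lymphocytes. Vcan, which followed, had no UMI in the latter 2 gates either. Ms4a4c stood at 341 CPM in 89 cells against 45.7, 15.7 and 46.0 CPM, and Rnd3, a small GTPase that loosens the actin skeleton, at 89.4 CPM in 44 cells against 9.31 CPM in macrophages. Ccl17 and Ccl24, chemokines of type 2 responses, were found in 8 and 6 cells. Next came Smpdl3a, Jarid2, Chil3, Tgm2, Ahnak, Vim, Olfm1, Pira2, Ifitm3 and Ifi209. Vim, the intermediate filament vimentin, stood at 1608 CPM in 130 cells, with 426, 533 and 483 CPM in the other 3 gates. Pira2, an activating immunoglobulin-like receptor, stood at 237 against 29.9 CPM in macrophages. The 145 cells held 78.6% of all Chil3 UMIs of the knockout library, 57.3% of Saa3, 57.2% of Vcan, 45.9% of Ccr2 and 34.4% of Arg1, but 6.95% of Plac8.

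Receptors that bring leukocytes into tissue were part of the difference. Of 13 homing receptors and adhesion genes measured besides Ccr2, which chose the monocytes, 4 were higher and 2 lower than in macrophages. Over all 207 members, none of 14 was higher and 3 were lower. Those higher in the screened monocytes included the integrin chain genes Itga4, at 245 against 62.6 CPM (1.97, 1.68 to 2.26), Itgal, at 110 against 34.1 CPM, and Itgb2, at 224 against 107 CPM. The Itga4 chain binds VCAM-1, and Itgal pairs with Itgb2 as LFA-1, which binds ICAM-1. Itgb7, a partner of Itga4, had 40 UMIs, too few for the count, at 54.2 against 2.54 CPM. Cx3cr1 was among the lower ones. Selplg, an adhesion ligand on leukocytes, stood at 123 against 69.1 CPM and Ccr1 at 213 against 199 CPM, both within 2-fold.

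Matrix genes and proteases were more often higher than lower. Of 26 matrix genes, proteases and their partners measured, 13 were higher and 1 lower in screened monocytes than in macrophages, with a median log2 ratio of 1.84, and in all 207 members 9 were higher and 1 lower. The calcium-binding S100a4 stood at 723 against 46.5 CPM (3.96, 3.70 to 4.22) and S100a6 at 2830 against 353 CPM. Anxa2, which assembles plasmin at the cell surface, stood at 488 against 76.7 CPM, and Emilin2, an elastin-associated glycoprotein, at 179 against 26.2 CPM. Fn1 was higher as well, at 936 against 196 CPM (2.26, 2.10 to 2.41). The lower gene was Timp2, an inhibitor of matrix metalloproteinases, at 27.1 against 182 CPM. Of 6 clotting and fibrinolysis genes that the rule did not use, 3 were higher: F10, clotting factor X, at 126 against 7.90 CPM, Plaur, the urokinase receptor, at 75.9 against 22.3 CPM, and Thbs1 at 298 against 35.3 CPM.

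Transcription factor genes differed in both directions. Of 22 measured, 5 were higher and 2 lower than in macrophages. Klf2 stood at 512 against 64.3 CPM (2.99, 2.75 to 3.24), Klf4 at 121 against 24.8 CPM, and Cebpb, needed for nonclassical monocyte survival, at 1765 against 444 CPM (1.99, 1.88 to 2.10). Maf, which helps to hold macrophages in a differentiated state, was among the lower ones at 81.3 against 373 CPM. Spi1 stood at 733 against 546 CPM and Irf8 at 184 against 278 CPM, within 2-fold. In all 207 members 2 were higher and 4 lower.

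Genes of the macrophage's digestive and cycling programmes were lower or even. Of 19 lysosomal genes 7 were lower and none higher (10 lower in all 207 members), such as Lgmn at 373 against 1530 CPM and Ctsb at 549 against 1770 CPM, proteases of the endosome, while Ctss, which processes the class II invariant chain, stood at 2460 against 3416 CPM. Of 18 cell cycle genes 5 were lower and none higher (3 lower in all 207 members). All 13 Mki67 UMIs of the screened monocytes lay in 1 cell. The iron exporter gene Slc40a1 had no UMI in monocytes and stood at 30.2 CPM in macrophages, and Cd163, the haemoglobin-haptoglobin receptor gene, had 2 UMIs and stood at 67.4 CPM. Of 8 class II genes measured, 6 had enough UMIs to be counted and none of the 6 differed by 2-fold, with a median log2 ratio over the 8 of 0.017 that turned to -0.025 with TMM factors, -0.052 with median-of-ratios factors and -0.32 with each cell weighted equally. H2-DMb2, which helps to load peptides, had 31 UMIs, too few for the count, at 42.0 against 5.92 CPM, a log2 ratio of 2.81 (1.98 to 3.70). Among all 207 members 3 class II genes were lower, and within the monocytes the class II UMIs lay mostly in 1 group. None of 10 class I genes differed by 2-fold.

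Interferon-induced genes showed a mixed picture, with 4 of 25 higher and 1 lower than in macrophages. Ifitm3, which blocks virus entry, stood at 4336 against 1088 CPM (1.99, 1.93 to 2.06) and was found in 140 of 145 cells, and Ifitm2 stood at 2070 against 794 CPM. Zbp1, a sensor of unusual nucleic acids, stood at 96.2 against 32.7 CPM. Bst2, the tetherin gene, was lower at 122 against 305 CPM, and Irf7 stood at 97.5 against 85.7 CPM. In all 207 members none was higher and 1 was lower. Of 17 glycolysis genes 3 were higher, Eno1 at 494 against 223 CPM, Pgk1 at 275 against 134 CPM and Pfkl at 78.6 against 27.9 CPM, and 1 of 17 in all 207 members. Of 19 genes known to be induced by tissue dissociation 5 were higher and none lower, among them Fos at 183 against 65.7 CPM and Socs3 at 269.5 against 78.4 CPM, and none of 19 in all 207 members. The part of dissociation in these levels was not tested.

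The study concerned factors that link kidney disease to muscle wasting, and monocytes are known to make several of the cytokines concerned. Of 15 such factors with enough UMIs, 1 was higher in screened monocytes than in macrophages and 2 were lower, the chemokine gene Ccl7 and Tnfsf12, which encodes TWEAK. In all 207 members Lcn2 was higher, Ccl2 and Ccl7 were lower, and Il1b stood at 51.9 against 30.9 CPM, within 2-fold. The higher one among screened monocytes was Il1b, which encodes the fever cytokine interleukin 1 beta: it stood at 137 CPM in 35 of 145 monocytes, at 46.3 CPM in macrophages (1.57, 1.19 to 1.93) and at 2506 CPM in neutrophils, and the 145 cells held 15.2% of the library's Il1b UMIs. Osm, oncostatin M, a cytokine of the interleukin 6 family, had 23 UMIs in 8 cells, 31.2 CPM (19.7 to 46.7) against 7.62 CPM in macrophages, with 11 UMIs in 1 cell. It had too few UMIs for the count of genes, and those 8 cells held 37.7% of the library's Osm UMIs. Tnf had 9 UMIs in 7 cells, 12.2 CPM against 12.1 CPM in macrophages, and Il6 had none in any of the 4 gates, which allows up to 5.00 CPM in monocytes. Tgfb1, transforming growth factor beta 1, stood at 190 against 142 CPM.

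Gdf15, Lcn2 and Spp1 of the same list stood higher outside the immune gates. Gdf15, a stress hormone that suppresses appetite, had 2 UMIs in the screened monocytes, 2.71 CPM (0.328 to 9.79), against 203 CPM in cells outside the immune gates. Lcn2, the iron-binding lipocalin 2, stood at 108 CPM in monocytes and 4184 CPM outside the gates. Spp1, osteopontin, stood at 750 CPM in monocytes, 1443 in macrophages and 17939 outside the gates. Over all 207 members these 3 genes stood at 151, 5280 and 11022 CPM, values that rest on the tubule-bearing cells.

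**Figure D5:**
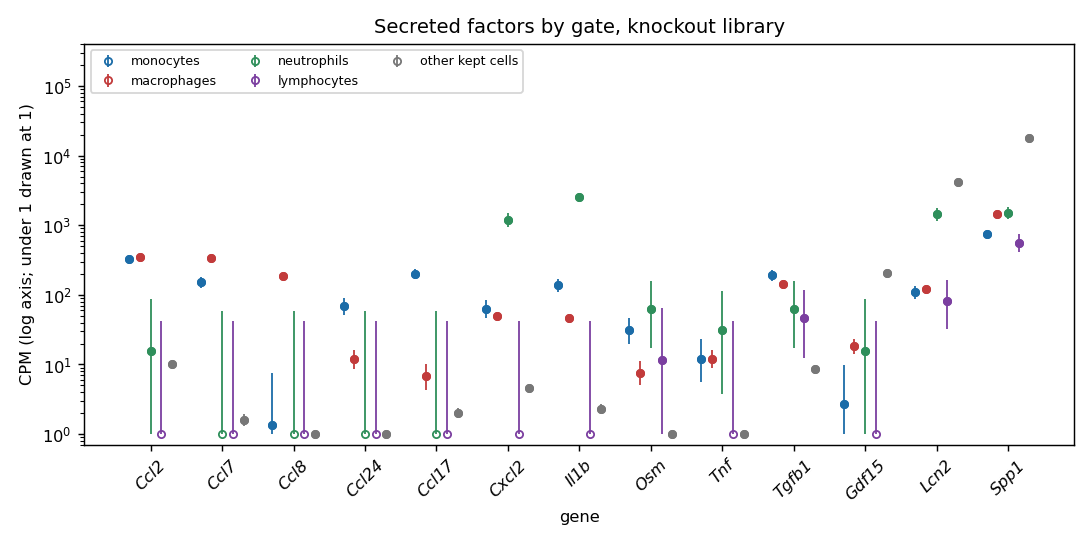
Levels of secreted factors in CPM on a log scale, by gate of the knockout library, with exact Poisson 95% intervals as bars. Il1b is highest in neutrophils and higher in monocytes than in macrophages, and Gdf15, Lcn2 and Spp1 are highest in cells outside the immune gates.

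Chemokine genes of the list were lower in monocytes than in macrophages more often than higher: of 16 measured, 6 were lower and 2 higher. In all 207 members 7 of 17 were lower and none higher. Ccl12, a CCR2 ligand, stood at 28.4 against 582 CPM, Pf4 at 202 against 1040 CPM and Cxcl16, a scavenger receptor and ligand of CXCR6, at 123 against 555 CPM. Ccl6 was higher at 1409 against 582 CPM in 120 of 145 cells, and the other was Ccl24, found in 6 cells. Ccl17, which was not on the list, was higher as well, at 202 against 6.77 CPM, and was found in 8 cells. Ccl2 was even at 328 against 345 CPM, with 100 of its 242 UMIs in 1 monocyte and 77.7% in 4. On the receiving side, 5 of 21 cytokine receptor genes were higher and 3 lower, against 1 and 5 of 23 in all 207 members. Those higher included Il17ra, the interleukin 17 receptor, at 100 against 17.2 CPM (2.54, 2.03 to 3.06), Tnfrsf1b, a receptor for tumour necrosis factor, at 144 against 37.5 CPM, and Ifngr1, the interferon gamma receptor, at 904 against 423 CPM in 134 of 145 cells. Csf1r, the receptor that keeps macrophages alive, stood at 423 against 786 CPM.

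Against the 61 neutrophils of the library, 975 of 2319 genes (42%) differed for all 207 members, 883 higher (38.1%) and 92 lower (3.97%), and for screened cells 487 of 1405 (34.7%), 420 higher (29.9%) and 67 lower (4.77%). The filter sets much of that split, since a gene lower in monocytes needed its 50 UMIs in the screened neutrophil gate of 63854 UMIs, against 738277 in monocytes. Without it 442 genes were higher and 775 lower for screened cells, and 883 and 892 for all 207 members. The counts of list genes below carry the same limit. Beside them, 420 of all 4693 genes measured as in the lists were higher in screened monocytes and 67 lower. Neutrophils were shallow, with a median of 1017 UMIs in the 54 screened cells. Of the 10 classical markers outside the rule, 4 were higher in monocytes and 2 lower, the latter being Hp at 917 against 2882 CPM and Gsr, glutathione reductase, at 616 against 2114 CPM. Of 8 class II genes 6 were higher in monocytes, with a median log2 ratio of 5.62, and of the 8 neutrophil markers measured outside the rule 5 were lower and none higher, with a median of -6.09. Of 16 dissociation-induced genes with enough UMIs 6 were lower in monocytes and 1 higher. Cebpb stood at 2929 CPM in neutrophils, above the monocytes.

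Against the 40 lymphocytes, 719 of 2260 genes (31.8%) differed for all 207 members, 670 higher (29.6%) and 49 lower (2.17%), and for screened cells 509 of 1454 (35%), 482 higher (33.1%) and 27 lower (1.86%). The same limit applied with 86945 UMIs in the screened lymphocyte gate, and without the filter 559 genes were higher and 804 lower for screened cells, and 828 and 699 for all 207 members. Higher in monocytes were 9 of 10 classical markers outside the rule, 15 of 18 lysosomal genes and 6 of 8 class II genes. Of all 4815 genes measured as in the lists, 482 were higher and 27 lower. Among the genes above, Klf2 stood higher in lymphocytes, at 1909 CPM, as did Itgb7, at 184 CPM. The Ly6c2 level was similar in both gates, at 150 CPM (124 to 181) in monocytes and 138 CPM in lymphocytes, from 12 UMIs.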

How the data were processed

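The starting point was the filtered UMI count matrix of each library as the authors deposited it, with 31053 genes, 35 of them sharing a symbol and kept apart by Ensembl identifier. Per the file headers the counts were made with software version 3.1.0, while the submitters' processing notes name Cell Ranger 3.0.2, Seurat 3.1.1 and build mm10. How the 2 versions fit together is not given in the sources used here.

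No step on the reads was rerun. Members were found by the rule given at the start, and 3 further gates used the same cell filter: macrophages (at least 5 C1q and 3 myeloid UMIs), neutrophils (S100a8 and S100a9 at 2% or more) and lymphocytes (at least 2 UMIs of Cd3e, Cd3d and Cd79a). Each was below the limits of the others on C1q, neutrophil and lymphocyte genes. None of these 3 gates had a limit on Ccr2, Plac8, Ly6c2 and F13a1. Neutrophils and lymphocytes had none on the myeloid genes. Each gate was treated as 1 sum of UMIs, and levels are shares of that gate's total. Log2 ratios had 0.5 UMIs added to each sum, and their intervals came from the exact conditional comparison of Poisson sums (scipy 1.17.1). A gene counted as differing at 2-fold or more with an interval leaving out no change, among genes with at least 50 UMIs and 50 CPM in the higher gate, or 20 UMIs within the monocytes. A gene of a list was measured with 20 UMIs over both gates. The script was tested on simulated data.

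Members were clustered with scanpy 1.11.5 (Leiden, resolution 0.6). Doublets were called with Scrublet and kept, as in the rule, with their removal as an alternative. Normalization factors came from edgeR 4.0.16 (TMM) or medians of ratios. The text names the 20 genes with the largest smallest ratio of monocytes over the 3 other gates, the highest and lowest genes against macrophages and by Ly6c2 and C1q, and up to 6 genes of each list. The members and lists were chosen with earlier results of these data known, and the screen and the names of the groups after the values had been seen. Reads from antisense or near-identical genes, such as Ly6c1 and Ly6c2, may not all have been counted for the right gene, which was not tested. Some genes that are counted in the lists are not reported here by name.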

Additional observations from a re-analysis of the deposited data

How the results depend on the processing

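No paired analysis was possible because each genotype had 1 library. Counting error was the only error given. Among the values compared one by one, none that was called changed its sign. Of the called genes of all 207 members, however, 1 was called the other way against macrophages without members that carried NK, plasmacytoid or basophil genes, and 2 against macrophages and 1 against neutrophils when every cell was thinned to 2000 UMIs. The median log2 ratio over all genes for all 207 members turned from 0.187 to -0.052 against macrophages without those members and to -0.031 with TMM factors, and from 0.467 to -0.408 against neutrophils when thinned. For screened cells it turned from 0.124 to -0.278 against neutrophils when thinned, and against macrophages it lay between -0.074 and 0.0296. Among shares and counts of genes, 86 alternative values stayed close to the reported one (for counts, within 1.5 times) and 29 did not, and among single genes 583 stayed and 15 did not.

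The knockout share of monocytes was 1.92% without members that carried NK, plasmacytoid or basophil genes, 2.14% with every cell thinned to 2000 UMIs and 2.00% after the screen. The wild type share was 0.0686% after the screen. Against macrophages, 616 genes differed without doublets (373 higher, 243 lower), 1939 without the filter on low counts and 917 at 1.5-fold, and for screened cells 1440 and 769 in the last 2 settings. Against neutrophils, the counts were 600 with at least 1000 UMIs per cell, 614 without members with NK, plasmacytoid or basophil genes, 24 when thinned, 1775 without the filter and 487 after the screen. For screened cells they were 323 with at least 1000 UMIs, 25 when thinned, 770 with TMM factors and 1217 without the filter. Thinning left few neutrophils with 2000 UMIs. Against lymphocytes they were 210 when thinned and 1527 without the filter, and for screened cells 199 and 1363. By Ly6c2, 158 genes differed when thinned and 167 after the screen, or 63 with both. By C1q these were 208, 106 and 44. Clustering gave 4 groups at resolution 0.3 and 8 at resolution 1. The 4 held 82, 70, 45 and 10 cells, and neither the nonclassical monocyte-like nor the Fn1 and Thbs1 group was the largest part of any. At resolution 1 the nonclassical monocyte-like cells formed 1 cluster of 16. The Fn1 and Thbs1 group was then the largest part of 2 clusters, of 26 and 6 cells. The cause of these moves, apart from the filters and cell numbers themselves, was not tested.

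Scaling of screened monocytes against neutrophils and lymphocytes shifted all log2 ratios by 0.47 and 0.40 with TMM factors and by 0.16 and 0.11 with medians of ratios. Depth limits low genes most: at 738277 UMIs, a gene without a UMI in screened monocytes may stand at up to 5.00 CPM. Genes that rest on few cells, such as Ccl17, Ccl7, Cxcl2, Pf4 and Retnla, describe those cells.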

Other observations

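The calprotectin genes S100a8 and S100a9, whose products form a dimer and which neutrophils carry together (35456 and 46747 CPM in the screened neutrophils), were not found together in the screened monocytes. S100a8 had 114 UMIs in 24 of 145 cells (154 CPM), and S100a9 had none. Over all 207 members S100a8 had 322 UMIs in 34 cells and S100a9 had 96 in 5. The rule limited the sum of both genes to under 2% of a cell's UMIs, so their level was bounded by the choice of cells.

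Several transcripts of the screened monocytes came mostly or wholly from single cells. The fatty acid binding protein gene Fabp4 had 131 of 148 UMIs in 1 cell. Retnla, which encodes the resistin-like molecule alpha of type 2 responses, had 104 of 132 UMIs in 1 cell, with the rest in a second. All 13 Mki67 and all 14 Top2a UMIs, genes of dividing cells, lay in 1 cell. Saa3 and Arg1 were spread more widely, with 28.1% and 14.1% of their UMIs in the richest cell and 25 and 19 cells with a UMI.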
